A study of Homo sapiens with 6 samples.

Results

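The genes described here are 91 protein-coding genes of the nucleus, most of which encode subunits of the mitochondrial respiratory chain or their close paralogs. They were chosen by symbol alone from the 38637 genes of the table. The symbols start with NDUFA, NDUFB, NDUFC, NDUFS, NDUFV, UQCR, COX4, COX5, COX6, COX7, COX8 or ATP5, or are SDHA, SDHB, SDHC, SDHD or CYC1, and the assembly factors whose symbols start with NDUFAF were left out. By their symbols, 40 of them belong to complex I, 4 to complex II, 10 to complex III, 17 to complex IV and 20 to complex V. Complex V counted in this way includes ATP5IF1, an inhibitor of the ATP synthase and not a subunit. The read-through genes NDUFC2-KCTD14 (complex I) and ATP5MF-PTCD1 (complex V) are counted too. NDUFA4 is counted with complex I for its symbol, although its product is now placed in complex IV.

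The RNA came from HCCLM3-SR cells, a human hepatocellular carcinoma line that was made resistant to the kinase inhibitor sorafenib by slowly raising the drug concentration. In the cDCBLD2 knockdown group, 3 libraries came from cells transfected with an siRNA against cDCBLD2, a circular RNA made from the DCBLD2 gene. In the control group, 3 libraries came from cells transfected with a control siRNA. Both groups were under 5 µM sorafenib, the transfections lasted 3 days, and RNA with poly(A) tails was sequenced. The knockdown rests on a single siRNA sequence in a single resistant line, and parental or untreated cells were not analysed here. The labels do not say whether the libraries of a group came from separate cultures, so p-values measure only the spread between these libraries, which may be technical.

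The values are TPM (transcripts per 1000000), in which each gene's reads are divided by its length and each library sums to 1000000. The reads that could be recovered from these values came to between 17492330 and 23063898 per library. The cells carried the liver transcription factor HNF4A (22.9 to 31.3 TPM) and, of the epithelial markers, KRT8 (2999 to 4413 TPM), KRT18 (1800 to 2555 TPM) and CDH1 (37.7 to 62.0 TPM), while EPCAM was near 0 (at most 0.323 TPM). The secreted hepatocyte products ALB, APOA1, APOB, TTR, SERPINA1 and AFP were low, with no library above 4.26 TPM. Markers of other cell types were also low: PTPRC of leukocytes reached 0.411 TPM, PECAM1 of endothelium 5.64 TPM, and COL1A1 of fibroblasts 11.2 TPM in knockdown replicate 1 and at most 3.64 TPM elsewhere. TTR, COL1A1, HNF4A and KRT8 were higher in every knockdown library than in any control. In knockdown and control, TTR stood at 1.30 to 1.64 and 0.202 to 0.241 TPM, and COL1A1 at 3.61 to 11.2 and 1.13 to 3.35 TPM. HNF4A stood at 27.0 to 31.3 and 22.9 to 23.7 TPM, and KRT8 at 3644 to 4413 and 2999 to 3408 TPM. APOB was lower without overlap (0.902 to 2.71 against 2.72 to 4.26 TPM), and the other markers overlapped. The part of these markers in the values below was not tested. The circular RNA itself was not analysed here.

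The respiratory chain passes electrons from NADH (complex I) and succinate (complex II) through ubiquinone to complex III, then through cytochrome c to complex IV, which reduces oxygen. Complexes I, III and IV pump protons across the inner mitochondrial membrane, and complex V, the ATP synthase, lets them return and makes ATP. Complexes I, III, IV and V also hold the 13 proteins encoded in mitochondrial DNA, whose transcripts were not analysed here. In liver tumours the balance between respiration and glycolysis, and the answer of some paralogs to low oxygen, are well studied topics.

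Across the chain the differences between knockdown and control were small. Of the 91 genes, 85 had a mean of at least 1 TPM and were tested, and 84 of these had a log2 fold change between -0.5 and 0.5. The exception was NDUFA4L2, the low-oxygen paralog of NDUFA4, with a log2 fold change of 1.90. In the fit without a block, no member passed an adjusted p of 0.05 (limma on log2(TPM + 1), Benjamini-Hochberg over 13980 genes). In the same fit 0.250% of all genes tested were called higher and 0.629% lower. With the study's added limit of a log2 fold change over 1 in size, 0.129% of all genes were called and again no member. At an unadjusted p under 0.05, 12 of the 85 members (14.1%) and 3654 of all genes (26.1%) passed. All 12 members were lower in the knockdown, as were 2706 of the 3654 genes. The voom method on the recovered reads also called no member. The median log2 fold change of the members was -0.080, beside -0.084 for all genes tested. Of the 85 members 66 were below 0, beside 8718 of the 13980 genes tested. In bulk RNA, a lower level in each cell and fewer cells with the transcript cannot be told apart.

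Because same-numbered libraries of the 2 groups shared their deviations from the group means, the replicate number was also fitted as a block. The block leaves the fold changes as they are and takes the shared deviation out of the error. The median standard error of the members was 0.080 without the block and 0.048 with it. With the block, 23 of the 85 members were called lower (27.1%), beside 25.0% of all genes tested, and 2 were called higher (2.35%), beside 9.94% of all genes. The lower share was thus near that of all genes. With the limit of a log2 fold change over 1 in size, 1 member was called, NDUFA4L2, and 1.21% of all genes. Without both libraries of replicate 3 the block called no member lower and only NDUFA4L2 higher, beside 3.19% and 1.32% of all genes. Without those of replicate 2 it called 6 lower and 1 higher, beside 7.75% and 2.98%. Without those of replicate 1 it called 25 lower and 4 higher, beside 28.0% and 11.3%.

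**Figure D1:**
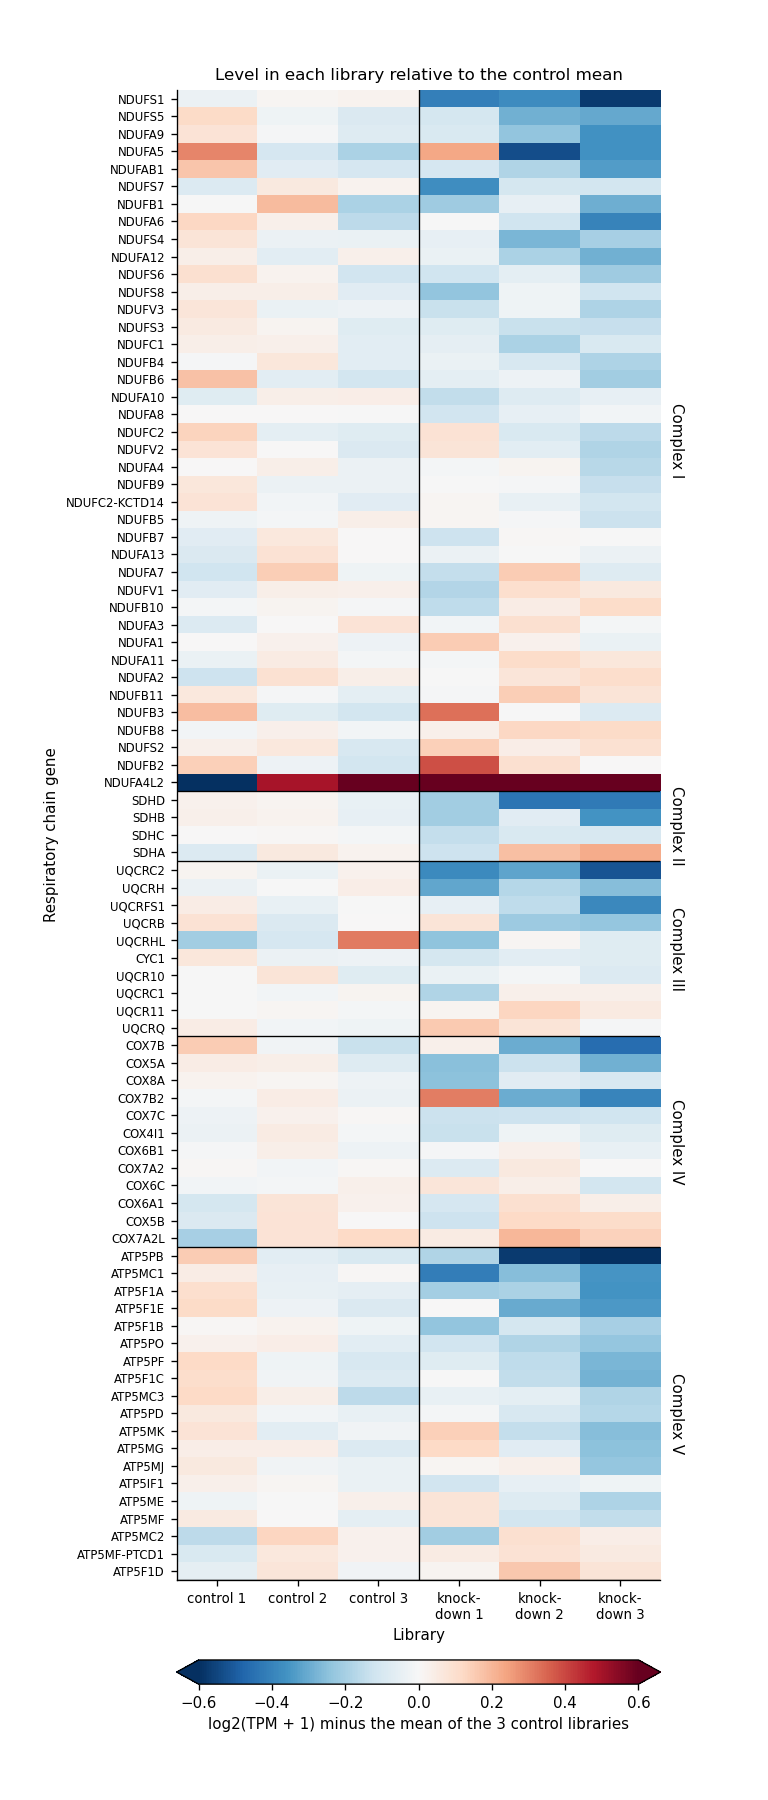
Level of each of the 85 tested genes (rows, by complex and then by fold change) in the 6 libraries (columns), as log2(TPM + 1) minus the mean of the 3 control libraries. Colours stop at 0.6 in either direction. NDUFA4L2, at the end of complex I, is dark red in all 3 knockdown libraries, and NDUFS1, SDHD, UQCRC2 and ATP5PB are blue in all 3 knockdown libraries.

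Groups that do not overlap give a second description that needs no model. In 22 of the 85 members (25.9%) the highest knockdown value was under the lowest control value, beside 22.3% of all genes tested. In 2 members, NDUFB8 and UQCR11, the lowest knockdown value was over the highest control value, beside 9.58% of all genes. Neither passed the test with the block on TPM as deposited (adjusted p 0.14 for NDUFB8 and 0.26 for UQCR11 in limma). With the block, NDUFB8 was called higher with upper-quartile scaling (adjusted p 0.034) and with voom (0.036), and UQCR11 with voom (0.050, just under the threshold). Neither was called with the block after the GC trend was taken out (adjusted p 0.19 for NDUFB8 and 0.94 for UQCR11) or the length trend (0.057 and 0.086). Their log2 fold changes were 0.090 and 0.066, and 0.077 and -0.0045 with the GC trend taken out. Without the block, the UQCR11 value was 0.035 without knockdown replicate 2. NDUFB8, an accessory subunit of complex I, had 170, 181 and 180 TPM in the knockdown libraries 1, 2 and 3, against 164, 169 and 164 TPM in the controls. UQCR11, a small subunit of complex III, stood at 158, 170 and 162 TPM against 156, 157 and 155 TPM. These 2 genes were named after their values were seen.

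Summed over all 91 genes, the chain took 20439, 21186 and 20304 TPM in the knockdown libraries and 21751, 21877 and 21280 TPM in the controls. The groups did not overlap, and within same-numbered pairs the ratios of knockdown to control were 0.940, 0.968 and 0.954. Between 2.03% and 2.19% of the TPM of a library belonged to these genes. By complex the sums for complex I were 7323, 7476 and 7270 TPM against 7584, 7482 and 7282 TPM, which overlap. These include the paralog NDUFA4L2, at 102, 242 and 438 TPM against 16.8, 83.0 and 140 TPM, which raises the knockdown sums more than the control sums. The sums of complex II (396 to 432 against 466 to 487 TPM), complex III (1647 to 1751 against 1825 to 1858 TPM) and complex V (5587 to 5945 against 6150 to 6407 TPM) were lower in every knockdown library than in any control. The sums of complex IV were 5107, 5583 and 5382 TPM against 5419, 5722 and 5528 TPM and overlapped. A sum follows its most abundant genes and was not tested. Lower values in the knockdown were common in the whole table. Of the 13980 genes tested, 8718 had a log2 fold change below 0, with a median of -0.084, and 22.3% were lower without overlap.

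**Figure D2:**
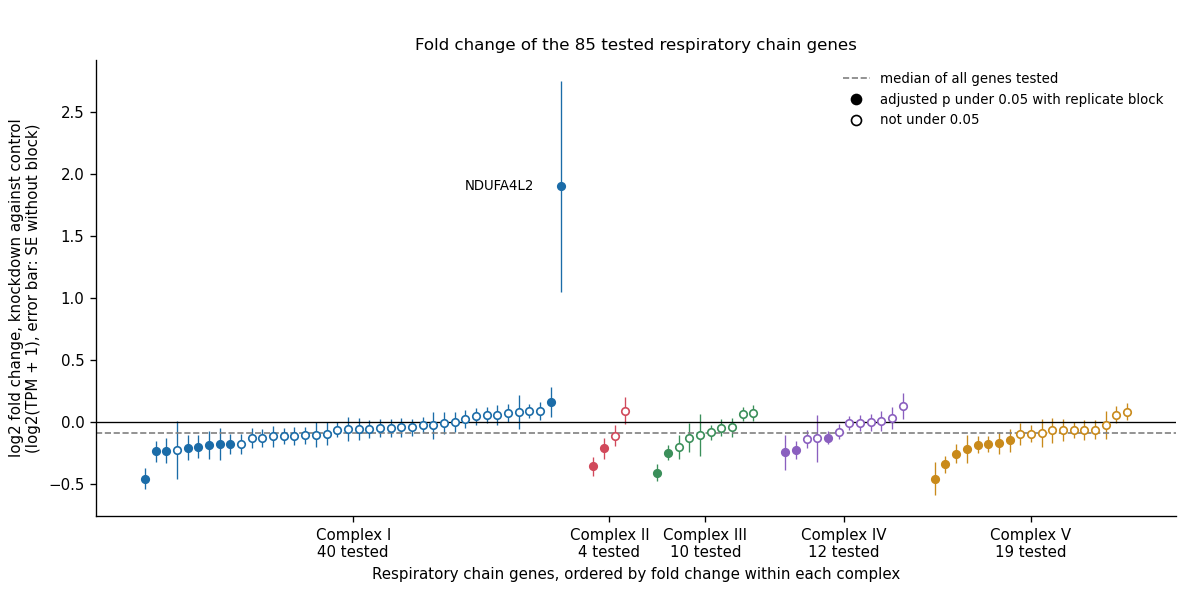
Each point is the log2 fold change of a tested gene (vertical axis, knockdown against control, bars are standard errors without the block) by complex. Filled points passed an adjusted p of 0.05 with the replicate block, and the dashed line is the median of all genes tested, -0.084. All members but NDUFA4L2 lie between -0.5 and 0.5.

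Complex I takes electrons from NADH. Its 7 core subunits of the nucleus hold the flavin and the iron-sulfur clusters, and the accessory subunits surround them. All 40 genes of this complex were tested, their median log2 fold change was -0.056, and with the block 8 were called lower (20%, beside 25.0% of all genes) and 2 higher (5%, beside 9.94%). In the blocked fit with the GC trend taken out, 4 were called lower (10%, beside 13.2% of all genes) and 8 higher (20%, beside 11.7%). Of the 7 core subunits, 2 were called lower with the block, NDUFS1 and NDUFS7. Of 30 accessory subunits, 6 were called lower (NDUFA6, NDUFA9, NDUFAB1, NDUFB1, NDUFS4 and NDUFS5) and 1 higher (NDUFB2).

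NDUFS1, the largest core subunit, which carries iron-sulfur clusters, had the lowest fold change of the whole chain. It lies on chr2:206114817-206159603 on the minus strand (GRCh38). Its level was 20.5, 20.9 and 18.1 TPM in the knockdown libraries and 26.8, 27.8 and 28.0 TPM in the controls. Every knockdown library was below every control. The log2 fold change was -0.45 (SE 0.085), with an adjusted p of 0.059 in limma without the block and 0.0092 with it. The difference was -0.37, -0.39 and -0.60 in the 3 pairs. After the trend of fold change with GC content over all genes was taken out, the log2 fold change was -0.15 and the adjusted p with the block 0.12.

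NDUFS7, another core subunit with an iron-sulfur cluster, stood at 67.7, 81.4 and 81.3 TPM in the knockdown and 83.0, 91.4 and 89.2 TPM in the controls. Its log2 fold change was -0.20 (SE 0.094), with an adjusted p of 0.24 without the block and 0.033 with it, and it was -0.11 without knockdown replicate 1. With the GC trend taken out NDUFS7 had the lowest value of the chain, -0.36 (adjusted p with the block 0.0064). With the block the call was lost after the length trend was taken out (adjusted p 0.11), with upper-quartile scaling (0.11) and with voom (0.26). NDUFS5, an accessory subunit, stood at 364, 321 and 317 TPM against 425, 385 and 369 TPM. Its log2 fold change was -0.23 (SE 0.086), with an adjusted p of 0.15 without the block and 0.0094 with it in limma. For NDUFS5 the blocked call was lost with the GC trend taken out (-0.088, adjusted p 0.14) and with voom (-0.14, adjusted p 0.095). In both genes the groups did not overlap. NDUFS5 and NDUFS7 were named after their values were seen.

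The 2 most abundant members of complex I were NDUFB9 and NDUFA13, both accessory subunits. NDUFB9 stood at 1774, 1769 and 1613 TPM in the knockdown and at 1866, 1736 and 1733 TPM in the controls. NDUFA13 stood at 421, 430 and 420 TPM against 405, 458 and 432 TPM. In both the groups overlapped, and the log2 fold changes were -0.050 (SE 0.073) and -0.025 (SE 0.066). The TPM of NDUFB9 was close to that of the ATP synthase subunit ATP5F1B, yet the reads per TPM were 0.393 of those of ATP5F1B. Levels between genes thus rest on the gene lengths the authors used, which are not given in the sources used here.

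NDUFA4L2 stood apart from every other member. NDUFA4 is a constitutive subunit, and NDUFA4L2 is its paralog, known as a target of hypoxia-inducible factor that lowers mitochondrial respiration. NDUFA4L2 lies on chr12:57234903-57240715 on the minus strand (GRCh38). Controls 1, 2 and 3 held 16.8, 83.0 and 140 TPM of it, and knockdown libraries 1, 2 and 3 held 102, 242 and 438 TPM. The groups overlapped, and the level was lowest in replicate 1 and highest in replicate 3 of both groups. Within each pair the knockdown library was higher, by 6.05-fold, 2.92-fold and 3.12-fold. The recovered reads behind these values ran from 71 to 2405 per library.

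For NDUFA4L2 the log2 fold change was 1.90, with a standard error of 0.85 without the block and 0.19 with it. The adjusted p in limma was 0.21 without the block and 0.0049 with it. Without the block the value rests in part on control replicate 1: it was 1.03 without that library, and between 1.41 and 2.52 without each of the others, with adjusted p-values from 0.085 to 0.49 over these 6 fits. A 2-sided exact permutation test of the 3 against 3 libraries gave p = 0.2, where 0.1 is the smallest it can give. By fold change, NDUFA4L2 ranked 13 among the 13980 genes tested. With the block the gene was also called after the GC trend was taken out (log2 fold change 1.77, adjusted p 0.0067), after the transcript length trend was taken out (1.96, adjusted p 0.0032) and with voom on recovered reads (1.84, adjusted p 7.6e-05). It was the only member called higher without the libraries of replicate 2 and without those of replicate 3.

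NDUFA4, the constitutive paralog, stood at 144, 146 and 129 TPM in the knockdown and 145, 148 and 141 TPM in the controls, a log2 fold change of -0.054 (SE 0.071), with an adjusted p of 0.39 with the block in limma. Without the GC trend it was 0.34 and was called higher with the block (adjusted p 0.014). It was not called with the block after the length trend was taken out, with upper-quartile scaling or with voom. On the log2(TPM + 1) scale, NDUFA4L2 minus NDUFA4 was -1.29 in the controls (SD 1.57, n = 3) and 0.66 in the knockdown (SD 1.13, n = 3). The difference of 1.95 between the groups had an exact permutation p of 0.2, or 0.35 after Benjamini-Hochberg adjustment over 7 paralog comparisons. In the 3 pairs it ranged from 1.55 to 2.54. The coding sequences of the 2 genes share 63.8% of aligned bases.

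NDUFB2, an accessory subunit, was the other member called higher with the block. It stood at 420, 344 and 322 TPM in the knockdown and 355, 314 and 298 TPM in the controls, and the groups overlapped. The log2 fold change was 0.16 (SE 0.12), with an adjusted p of 0.43 in limma without the block and 0.038 with it. The difference was positive in all 3 pairs (0.24, 0.13 and 0.11). The call was lost without the libraries of replicate 2 and without those of replicate 3. Without the block, the fold change was 0.048 without knockdown replicate 1 and 0.11 without control replicate 3. NDUFB2 was named after its values were seen.

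**Figure D3:**
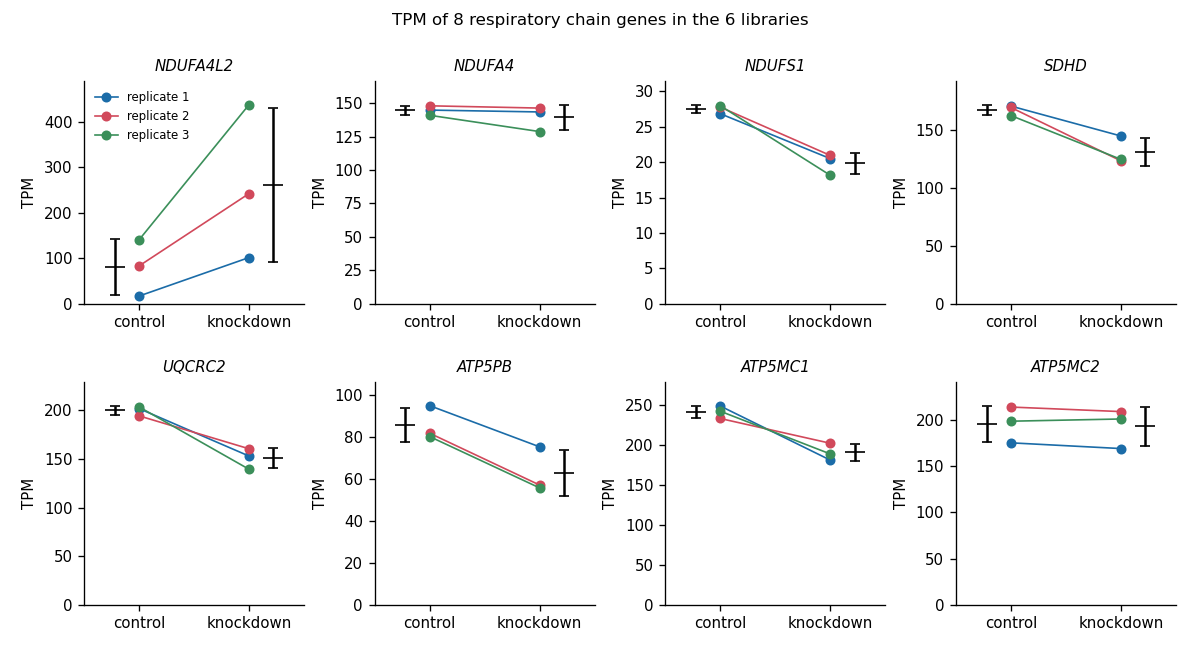
TPM (vertical axes, from 0) of 8 genes in the control and knockdown libraries, with a line joining libraries of the same replicate number. Black bars are the mean and SD of each group (n = 3). NDUFA4L2 is higher in the knockdown within every pair although the groups overlap, and NDUFS1, SDHD, UQCRC2, ATP5PB and ATP5MC1 are lower in every knockdown library than in any control.

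Complex II is the succinate dehydrogenase, which also works in the citric acid cycle, and all of its subunits come from the nucleus. SDHA carries the flavin, SDHB the iron-sulfur clusters, and SDHC and SDHD anchor the enzyme in the membrane. SDHD and SDHB were called lower with the block (50%, beside 25.0% of all genes) and none higher (beside 9.94%). In the blocked fit with the GC trend taken out, 1 was called lower (25%, beside 13.2% of all genes) and none higher (beside 11.7%). The median log2 fold change of the 4 genes was -0.16, and 0.0044 with the GC trend taken out.

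SDHD (chr11:112086773-112120013, plus strand) stood at 145, 124 and 125 TPM in the knockdown and at 171, 170 and 163 TPM in the controls. No knockdown library reached the lowest control. The log2 fold change was -0.36 (SE 0.080), with an adjusted p of 0.073 in limma without the block and 0.0090 with it. It was 1 of the 3 members called lower with the block that were also called lower, each time with the block, after the GC and the length trend were taken out, after upper-quartile scaling and with voom. The blocked call of SDHD was lost without the libraries of replicate 2 and without those of replicate 3.

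SDHB stood at 200, 221 and 180 TPM against 237, 235 and 223 TPM, again without overlap. Its log2 fold change was -0.21 (SE 0.086), with an adjusted p of 0.18 in limma without the block and 0.031 with it. It was -0.14 without knockdown replicate 3. After the GC trend was taken out it was 0.021, so its direction was lost. The blocked call of SDHB was also lost after the length trend was taken out (adjusted p 0.10), with upper-quartile scaling (0.085) and with voom (0.18). SDHC stood at 9.48, 9.84 and 9.81 TPM against 10.6, 10.6 and 10.5 TPM, with no overlap but an adjusted p of 0.28 with the block. SDHA, the catalytic subunit, stood at 63.2, 78.3 and 80.5 TPM against 65.1, 71.8 and 69.9 TPM. The value of 0.094 (SE 0.11) on the log2 scale was the only positive one of the complex, and ranged from 0.030 without knockdown replicate 3 to 0.20 without knockdown replicate 1. SDHA was called higher with voom and the block (0.20, adjusted p 0.045) and in the block without replicate 1 (0.16, adjusted p 0.048), and in no other blocked fit.

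Complex III hands electrons from ubiquinol to cytochrome c. UQCRC1 and UQCRC2 are its core proteins, and CYC1 and UQCRFS1 carry the cytochrome c1 haem and the Rieske iron-sulfur cluster. Its 10 genes had a median log2 fold change of -0.090, and 2 were called lower with the block (20%, beside 25.0% of all genes), UQCRC2 and UQCRH. A blocked fit with the GC trend taken out called 1 lower and 1 higher (10% each, beside 13.2% and 11.7% of all genes). The 4 core and catalytic genes were all below 0 on TPM as deposited, and in 3 of them (UQCRC2, UQCRFS1 and CYC1) the groups did not overlap. Over all 13980 genes tested, 8718 were below 0, and 22.3% were lower without overlap. The common direction was not kept elsewhere: UQCRFS1 was at 0.065 with the GC trend taken out, CYC1 at 0.018 with voom and the block, and UQCRC1 above 0 with the length trend taken out, with upper-quartile scaling and with voom.

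UQCRC2 (chr16:21952660-21983660, plus strand) stood at 153, 160 and 139 TPM in the knockdown and at 202, 194 and 204 TPM in the controls. Every knockdown library was below every control. The log2 fold change was -0.41 (SE 0.072). The adjusted p of 0.055 was the lowest of any member in limma without the block, and it was 0.0085 with it. After the GC trend was taken out the log2 fold change was -0.15 and the adjusted p with the block 0.12. UQCRC1, its partner and by mean TPM 1 of the 2 most abundant genes of the complex, stood at 319, 370 and 369 TPM against 362, 358 and 366 TPM. Its log2 fold change was -0.041 (SE 0.076), and the groups overlapped.

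UQCRH, the hinge protein that holds cytochrome c1, was the other most abundant gene of the complex. It stood at 395, 435 and 410 TPM against 477, 489 and 503 TPM, with no overlap. The log2 fold change was -0.24 (SE 0.064), with an adjusted p of 0.089 in limma without the block and 0.012 with it. The blocked call was lost with the GC trend taken out (-0.061, adjusted p 0.35) and with voom (-0.15, adjusted p 0.067). UQCRHL is an intronless near copy whose coding sequence shares 269 of 273 bases with that of UQCRH. It was listed at 3.48 to 4.34 TPM in the knockdown and 3.58 to 5.57 TPM in the controls, on 13 to 24 recovered reads, and how reads were split between the copies is not given in the sources used here. UQCRQ, a small subunit, had the highest fold change of the complex, at 127, 120 and 113 TPM against 117, 113 and 112 TPM. Its log2 fold change was 0.074 (SE 0.067), and the groups overlapped. UQCRQ was called higher with the block with upper-quartile scaling (0.14, adjusted p 0.047) and with voom (0.17, adjusted p 0.038), and not on TPM as deposited (adjusted p 0.23).

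Complex IV, cytochrome c oxidase, has several subunits with tissue-specific paralogs. Of its 17 genes, 5 had a mean under 1 TPM: COX4I2, COX6A2, COX6B2, COX7A1 and COX8C. These are isoforms of lung, heart and skeletal muscle, or testis. COX6A2 was listed at 0 in every library, and the highest value among them was 1.10 TPM for COX7A1, on 3 recovered reads, a lower bound. Their widely expressed counterparts were all above this limit. COX6A1 and COX8A were the 2 most abundant genes of the complex.

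COX6A1 stood at 1345, 1542 and 1482 TPM in the knockdown and at 1344, 1525 and 1471 TPM in the controls, nearly equal within each pair, with a log2 fold change of 0.0093 (SE 0.084). COX8A stood at 967, 1092 and 1071 TPM against 1162, 1153 and 1121 TPM, with no overlap. The fold change on the log2 scale was -0.14 (SE 0.070), with an adjusted p of 0.27 in limma without the block and 0.098 with it. With the GC trend taken out and the block COX8A was called lower (-0.22, adjusted p 0.024). It was not called with the block after the length trend was taken out (-0.078, adjusted p 0.41). Upper-quartile scaling (-0.065, adjusted p 0.38) and voom (-0.036, adjusted p 0.69) with the block did not call it either. Without the block, its value was -0.082 without knockdown replicate 1. COX4I1 stood at 607, 653 and 632 TPM against 650, 688 and 660 TPM, with a log2 fold change of -0.078 (SE 0.061). COX6B1 stood at 590, 606 and 575 TPM against 591, 608 and 582 TPM, with a log2 fold change of -0.0071 (SE 0.057). COX4I1 and COX6B1 overlapped between the groups.

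The 12 tested genes of complex IV had a median log2 fold change of -0.043, and 3 were called lower with the block (25%, beside 25.0% of all genes), COX5A, COX7B and COX7C. The median was 0.098 with the GC trend taken out, and with the block 1 was called lower (8.33%, beside 13.2% of all genes) and 3 higher (25%, beside 11.7%). COX7B had the lowest fold change, at 94.6, 75.2 and 67.2 TPM against 103, 91.3 and 84.5 TPM. The groups overlapped and each knockdown library was below its own control. Its log2 fold change was -0.24 (SE 0.14), with an adjusted p of 0.32 in limma without the block and 0.023 with it. Without the block it was -0.38 without knockdown replicate 1 and -0.13 without knockdown replicate 3. After the GC trend was taken out it was 0.11, and the blocked call was lost there (adjusted p 0.091), with upper-quartile scaling (0.059) and with voom (0.077). Its paralog COX7B2, known from testis, was also present, at 25.0, 16.1 and 14.9 TPM against 19.8, 20.7 and 19.5 TPM. It had a log2 fold change of -0.13 (SE 0.19). Without the block, COX7B2 was called lower without knockdown replicate 1 (-0.35, adjusted p 0.032), and was at 0.0027 without knockdown replicate 3. With the block it was called lower without replicate 1 (-0.36, adjusted p 0.015) but not over all 6 libraries (adjusted p 0.52). Its direction turned with the GC trend taken out (0.25, adjusted p with the block 0.13).

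COX7A2 is the widely expressed form of subunit VIIa, and COX7A2L is a related protein that joins complexes III and IV into supercomplexes. COX7A2 stood at 65.8, 72.8 and 69.9 TPM against 70.1, 69.1 and 70.1 TPM, with a log2 fold change of -0.0070 (SE 0.066). COX7A2L stood at 54.7, 61.0 and 58.3 TPM against 45.9, 56.1 and 57.5 TPM. With 0.13 (SE 0.10), its log2 fold change was the highest of the complex, with an adjusted p of 0.15 with the block in limma. It was 0.029 without control replicate 1. In the other blocked fits over all 6 libraries COX7A2L was called higher, with 0.45 after the GC trend was taken out (adjusted p 0.0056), 0.19 after the length trend (0.046), 0.20 with upper-quartile scaling (0.049) and 0.23 with voom (0.014). On the log2(TPM + 1) scale COX7A2L was below COX7A2 in both groups. COX7A2L minus COX7A2 was -0.39 in the controls (SD 0.18, n = 3) and -0.26 in the knockdown (SD 0.0043, n = 3), so the gap was smaller in the knockdown, by 0.14. The groups of that difference did not overlap (exact permutation p = 0.1, the smallest possible, and 0.23 after adjustment over 7 comparisons).

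Complex V is the ATP synthase, in which protons turn a ring of c subunits in the membrane and the F1 head makes ATP. Its 19 tested genes had a median log2 fold change of -0.093, and 17 were below 0, beside 8718 of the 13980 genes tested. With the block 8 were called lower (42.1%, beside 25.0% of all genes) and none higher (beside 9.94%). In the F1 head 4 of 5 genes were called lower (ATP5F1A, ATP5F1B, ATP5F1C and ATP5F1E), and in the peripheral stalk, which holds the head still, 3 of 4 (ATP5PB, ATP5PF and ATP5PO). In the c ring 1 of 3 was called, and of the 5 tested small membrane subunits none. After the GC trend was taken out, 2 genes of this complex were called lower with the block (10.5%, beside 13.2% of all genes) and 5 higher (26.3%, beside 11.7%). ATP5F1C and ATP5F1E, both lower before, were then among the 5.

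ATP5PB, the stalk subunit b, lies on chr1:111448864-111462773 on the plus strand. It stood at 75.3, 57.1 and 55.7 TPM in the knockdown and at 95.0, 81.8 and 80.2 TPM in the controls. The highest knockdown library was below the lowest control. Its fold change on the log2 scale was -0.45 (SE 0.13), with an adjusted p of 0.11 in limma without the block and 0.0065 with it. After the GC trend was taken out it was -0.16, with an adjusted p of 0.035 with the block. ATP5PB was the second of the 3 members that stayed called lower in every blocked fit over all 6 libraries.

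The third was ATP5MC1. The genes ATP5MC1, ATP5MC2 and ATP5MC3 encode the same mature subunit c behind different import signals, and 70% to 71.3% of the aligned bases of their coding sequences are shared. ATP5MC1 (chr17:48892765-48895871, plus strand) stood at 181, 202 and 189 TPM in the knockdown and at 249, 233 and 242 TPM in the controls, with no overlap. On the log2 scale the fold change was -0.34 (SE 0.067), with an adjusted p of 0.062 in limma without the block and 0.011 with it. The value was -0.34 after the GC trend was taken out as well (adjusted p with the block 0.014).

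The other c-subunit genes were not called, with or without the block. ATP5MC2 stood at 169, 209 and 201 TPM against 175, 214 and 199 TPM, with a log2 fold change of -0.023 (SE 0.11). ATP5MC3 stood at 90.9, 90.1 and 82.8 TPM against 102, 96.2 and 84.1 TPM, with a log2 fold change of -0.094 (SE 0.090). Without the block, the ATP5MC3 value was -0.034 without control replicate 1 and -0.17 without control replicate 3. Its direction turned with the GC trend taken out (0.074). On the log2(TPM + 1) scale, ATP5MC1 minus ATP5MC2 was 0.30 in the controls (SD 0.19, n = 3) and -0.013 in the knockdown (SD 0.099, n = 3). That difference of -0.32 ranged from -0.40 to -0.17 over the pairs. The groups did not overlap, with an exact permutation p of 0.1, the smallest possible, and 0.23 after adjustment. Relative to ATP5MC3 the difference was -0.25, with the same p-values in the exact permutation test.

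ATP5F1B, the catalytic beta subunit, was the most abundant gene of the whole chain by mean TPM, at 1749, 1918 and 1795 TPM against 2074, 2089 and 2022 TPM. The groups did not overlap. This gave a log2 fold change of -0.18 (SE 0.066), with an adjusted p of 0.15 in limma without the block and 0.025 with it. The blocked call was lost after the GC trend was taken out (-0.096, adjusted p 0.16), after the length trend was taken out (adjusted p 0.13), with upper-quartile scaling (0.096) and with voom (0.26). ATP5F1A, the alpha subunit, stood at 125, 127 and 113 TPM against 155, 140 and 139 TPM, with a log2 fold change of -0.25 (SE 0.078), called lower with the block (adjusted p 0.017) but not with the GC trend taken out (-0.097, adjusted p 0.22) or with voom (adjusted p 0.053). ATP5F1A was named after its values were seen.

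The second most abundant gene of the complex, ATP5MF, a small membrane subunit, stood at 843, 742 and 723 TPM against 830, 801 and 769 TPM, with a log2 fold change of -0.059 (SE 0.080). ATP5MF and NDUFC2 share exons with the read-through genes ATP5MF-PTCD1 and NDUFC2-KCTD14, so the split of their reads is uncertain. ATP5F1D, the delta subunit of the head, had the highest fold change of the complex. It stood at 545, 604 and 570 TPM against 520, 568 and 533 TPM, with a log2 fold change of 0.084 (SE 0.069). Without the block, this was 0.046 without knockdown replicate 2. The ATP5F1D value was -0.095 after the GC trend was taken out (adjusted p with the block 0.12). On TPM as deposited ATP5F1D was not called with the block (adjusted p 0.12 in limma), nor in the block without any 1 replicate number. In the blocked fits over all 6 libraries it was called higher after the length trend was taken out (0.15, adjusted p 0.048). The same held with upper-quartile scaling (0.16, adjusted p 0.026) and with voom (0.18, adjusted p 0.022). ATP5MGL, a paralog of ATP5MG, had a mean under 1 TPM.

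Promoters are shown for the lowest member of complexes I, II, III and V, to show the sequence around the start of the genes with the lowest fold changes. They run from 250 bases before to 50 bases after the start site, 5′ to 3′ on the strand of the gene, and come from RefSeq on GRCh38.p14. Such an entry was matched for 71 of the 91 genes. Capitals mark matches, on either strand, to GCGCANGCG (bound by the transcription factor NRF1), CCGGAAGT (bound by ETS factors such as GABPA) and AANATGGCG (bound by YY1), which are known regulators of respiratory chain genes.
NDUFS1 (chr2:206159395-206159694, minus strand): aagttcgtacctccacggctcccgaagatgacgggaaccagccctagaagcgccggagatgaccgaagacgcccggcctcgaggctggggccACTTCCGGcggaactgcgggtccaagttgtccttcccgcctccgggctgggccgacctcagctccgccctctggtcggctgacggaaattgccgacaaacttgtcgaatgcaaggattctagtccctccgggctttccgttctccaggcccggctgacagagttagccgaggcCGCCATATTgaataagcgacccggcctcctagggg
SDHD (chr11:112086623-112086922, plus strand): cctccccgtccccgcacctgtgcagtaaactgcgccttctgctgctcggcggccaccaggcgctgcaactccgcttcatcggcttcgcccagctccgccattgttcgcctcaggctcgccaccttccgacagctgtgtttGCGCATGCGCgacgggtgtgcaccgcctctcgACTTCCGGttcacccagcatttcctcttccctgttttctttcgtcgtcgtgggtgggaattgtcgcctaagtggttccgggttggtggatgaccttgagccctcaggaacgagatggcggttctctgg
UQCRC2 (chr16:21953111-21953410, plus strand): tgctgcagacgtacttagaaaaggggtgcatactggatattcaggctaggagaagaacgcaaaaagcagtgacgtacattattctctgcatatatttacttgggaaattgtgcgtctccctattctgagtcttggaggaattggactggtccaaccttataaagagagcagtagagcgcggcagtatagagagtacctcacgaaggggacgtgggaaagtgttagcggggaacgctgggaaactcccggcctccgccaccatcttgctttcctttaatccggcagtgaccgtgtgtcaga
ATP5PB (chr1:111449214-111449513, plus strand): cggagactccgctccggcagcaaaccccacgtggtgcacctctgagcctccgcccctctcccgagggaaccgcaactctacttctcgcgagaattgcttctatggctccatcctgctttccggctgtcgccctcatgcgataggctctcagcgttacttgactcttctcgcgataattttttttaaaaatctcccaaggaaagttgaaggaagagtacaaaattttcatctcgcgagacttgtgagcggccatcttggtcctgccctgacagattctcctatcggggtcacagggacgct

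SDHD held an NRF1 match on both strands, which begins 110 bases before the start site, and an ETS match that begins 78 bases before it. NDUFS1 held an ETS match 158 bases before the start site and a YY1 match 15 bases after it. UQCRC2 and ATP5PB held none of these letters in the window. Over the 71 promoters of members, the NRF1 letters were found in 23 (32.4%), the ETS letters in 10 (14.1%) and the YY1 letters in 16 (22.5%). Over 15218 promoters of protein-coding genes in the table the shares were 11.1%, 6.32% and 4.93%. In no member did matches of different motifs overlap. At least 1 of the motifs was found in 38 member promoters (53.5%) and in 19.9% of all. A match is a description of letters and not a measured binding site.

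The fold changes of the members moved with the GC content of their exons. Over the 85 members Spearman's rho was 0.447, and over the 13128 tested genes with a known GC content it was 0.633. These are correlations across genes that share the same 6 libraries and are given as a description. The 23 members called lower with the block had a median GC content of 46.4%, beside 51.8% for the other 62 tested. When the trend of all genes was taken out, rho over the members turned to -0.66, so that the members followed GC content less steeply than other genes did. In that fit with the block, 17 members were called higher (20%), beside 11.7% of all genes, and 9 lower (10.6%), beside 13.2%. Only 4 of the 23 lower calls were kept (ATP5MC1, ATP5PB, NDUFS7 and SDHD), and 3 turned to calls in the other direction (ATP5F1C, ATP5F1E and COX7C).

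**Figure D4:**
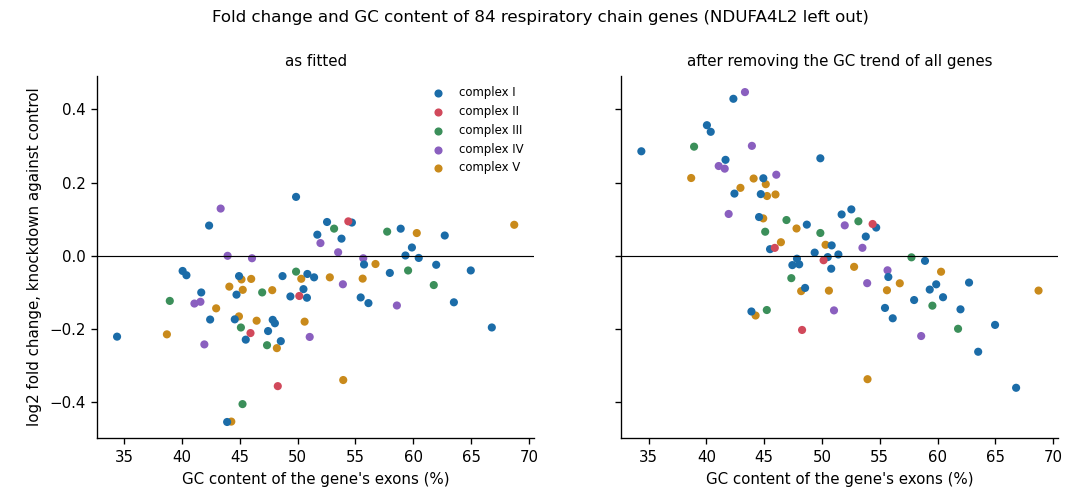
Each point is 1 of 84 members, with its log2 fold change (vertical axis) against the GC content of their exons in percent (horizontal axis), coloured by complex, before (left) and after (right) the trend of all genes was taken out. NDUFA4L2 is left out for scale. The slope is upward on the left (rho 0.447 over all 85) and downward on the right (rho -0.66 over all 85).

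Other scalings also lowered the number of lower calls. With the block and the transcript length trend taken out, 9 members were called lower and 5 higher, beside 17.6% and 18.6% of all genes. With upper-quartile scaling and the block, 9 were called lower and 6 higher, beside 19.4% and 14.6%. With voom on recovered reads and the block, 5 were called lower and 10 higher, beside 20.5% and 17.5%. ATP5MC1, ATP5PB and SDHD were called lower, and NDUFA4L2 and NDUFB2 higher, in the block and in all 4 of these alternatives. The median log2 fold change of the members moved from -0.080 to near 0 in these fits, as did that of all genes. It was 0.018 after the GC trend was taken out (-0.0034 for all genes), -0.0046 after the length trend (0.015), -0.0095 with upper-quartile scaling (-0.021) and 0.018 with voom and the block (0.0021). Its sign thus turned with the GC trend taken out and with voom, and not in the other pair.

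**Figure D5:**
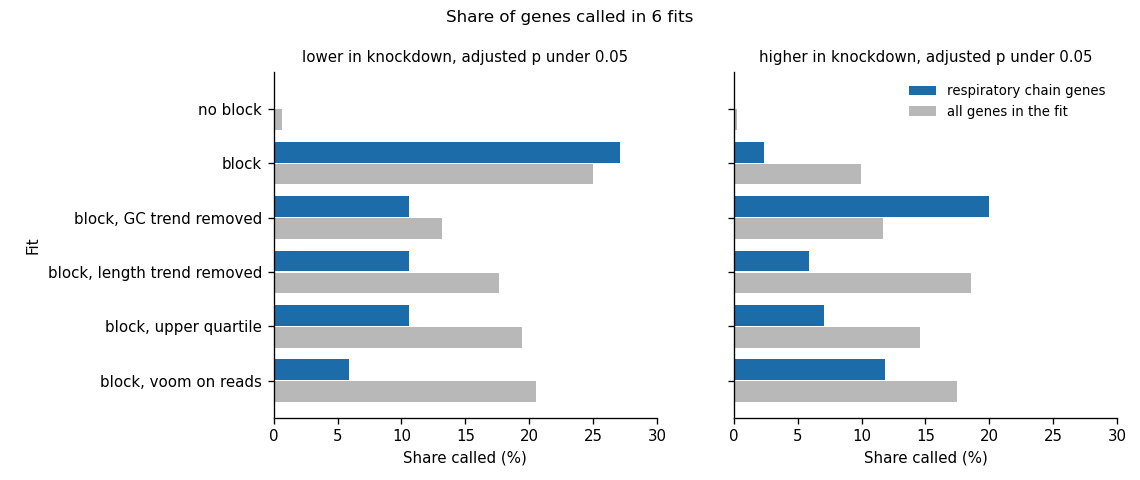
Share of the 85 members (blue) and of all genes in the fit (grey) called at an adjusted p under 0.05, in percent, lower (left) and higher (right) in the knockdown, in 6 fits. The lower share of members ranges from 0 without the block to 27.1% with it, and is 10.6% after GC correction, below that of all genes.

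Genes that serve the chain without being part of it were counted in the same way. Of 48 assembly factors, 11 were called lower and 2 higher with the block (22.9% and 4.17%, beside 25.0% and 9.94% of all genes), with a median log2 fold change of -0.15. Their median was -0.014 with the GC trend taken out, and with the block 6 were called lower (12.5%, beside 13.2% of all genes) and 5 higher (10.4%, beside 11.7%). LRPPRC, which stabilises mitochondrial mRNAs, was the lowest of them, at 80.6, 40.9 and 48.7 TPM against 119, 91.1 and 97.3 TPM. This corresponds to a log2 fold change of -0.89 (SE 0.25), with an adjusted p of 0.10 in limma without the block and 0.0066 with it. SCO2, a copper chaperone of complex IV, was the highest, at 58.7, 56.1 and 59.6 TPM against 47.6, 46.8 and 48.2 TPM. For SCO2 the log2 fold change was 0.29 (SE 0.063), with an adjusted p of 0.069 without the block and 0.0098 with it. With the GC trend taken out it was 0.14, and the blocked call was lost (adjusted p 0.076).

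Of 16 tested regulators of mitochondrial biogenesis, 6 were called lower with the block (37.5%, beside 25.0% of all genes) and none higher (beside 9.94%). With the GC trend taken out and the block, 3 were called lower (18.8%, beside 13.2% of all genes). The lowest was GABPA, which binds the ETS letters searched above, at 8.34, 3.83 and 4.56 TPM against 11.0, 7.22 and 7.90 TPM. The fold change on the log2 scale was -0.60 (SE 0.28), with an adjusted p of 0.22 in limma without the block and 0.013 with it. After the GC trend was taken out it was -0.12, and the blocked call was lost (adjusted p 0.26). The highest was POLG, the mitochondrial DNA polymerase, with a log2 fold change of 0.055 (SE 0.064, adjusted p with the block 0.42 in limma). Its direction turned with the GC trend taken out (-0.042, adjusted p with the block 0.56).

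Of 32 electron carriers and matrix dehydrogenases, 12 were called lower (37.5%, beside 25.0% of all genes) and 1 higher (3.12%, beside 9.94%) with the block. In the blocked fit without the GC trend, 5 were called lower (15.6%, beside 13.2% of all genes). GPD2, the mitochondrial glycerol-3-phosphate dehydrogenase, which feeds electrons to ubiquinone, was the lowest. It stood at 16.0, 9.39 and 11.5 TPM against 33.1, 21.8 and 23.9 TPM, with a log2 fold change of -1.04 (SE 0.22). Its adjusted p in limma was 0.068 without the block and 0.0044 with it. ETFB, a subunit of the electron transfer flavoprotein, was the highest, at 667, 705 and 694 TPM against 568, 587 and 578 TPM, a log2 fold change of 0.25 (SE 0.057, adjusted p 0.073 without the block and 0.0078 with it in limma). With the GC trend taken out the ETFB value was 0.14 (adjusted p with the block 0.032). Beside these, 25 of 78 mitochondrial ribosomal proteins (32.1%) and 22 of 88 genes with symbols of cytosolic ribosomal proteins (25%) were called lower with the block, beside 25.0% of all genes, and 1 of each was called higher. Of the mitochondrial group 9 were called lower and 6 higher (11.5% and 7.69%) in the blocked fit with the GC trend taken out, and 10 of the cytosolic group lower and 6 higher (11.4% and 6.82%), beside 13.2% and 11.7% of all genes. The cytosolic group was taken by a pattern of symbols that also takes in RPS19BP1, a binding partner of a ribosomal protein, and read-through genes. The median log2 fold changes of these groups were -0.096 and -0.10, close to the -0.080 of the respiratory chain.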

How the data were processed

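PolyA-Seq was analysed for 6 libraries of HCCLM3-SR cells, 3 with cDCBLD2 siRNA and 3 with control siRNA, grouped by the sample titles. The authors deposited TPM values per gene. Their processing notes name fastp 0.20.1, HISAT2 2.1.0, StringTie 2.0 and hg38. The annotation, strand and multimapping settings are not given in the sources used here. TPM sums to the same total in each library, so a rise of some genes lowers all others. All value columns were used.

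The 13980 genes whose mean reached 1 TPM were tested on log2(TPM + 1) in limma 3.58.1 (R 4.3.3) with its trend option and no block, and p-values were adjusted by the Benjamini-Hochberg method over all of them. Fold changes on this scale understate those of low genes. Single values were compared by 2-sided exact permutation tests (scipy 1.17.1), which cannot give a p under 0.1. The script was tested on simulated data.

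Libraries of the same replicate number, taken from the titles, were checked for pairing. The deviations from the group means correlated at 0.56, 0.343 and 0.362 within numbers 1, 2 and 3, each library best with its own number. Between unlike numbers, knockdown 2 with control 3 gave 0.215 and knockdown 3 with control 2 gave 0.247, and the rest were negative. Replicates 2 and 3 were thus less clearly told apart from each other than from replicate 1. The numbers were taken as pairs, and the blocked fit is given where it changes a call. What a number marks (a day, a batch or a culture) is not given in the labels.

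Reads were recovered from TPM, whose values for a gene are in whole-number ratios between libraries after division by a factor per library. All 17285 genes above 0 in every library gave whole numbers within 0.01 reads, and the smallest such numbers were used. They are lower bounds and cover counting error only.

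Gene positions, lengths and GC content came from GENCODE on GRCh38 (all 91 members matched). GC content was known for 93.9% of genes tested. Promoters came from RefSeq. As alternatives, each library's trend with GC content or transcript length was removed by loess, libraries were scaled to their upper quartile, other filters and a pseudocount of 0.1 were used, voom was run on the recovered reads, and each library was left out.

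The members and lists were chosen with earlier results of these data known. Named with values were, in each complex, the 2 members highest in mean TPM and those with the highest and lowest fold change, all members past the test, paralog sets, SDHA to SDHD and members under 1 TPM, and in other lists the highest and lowest gene.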

Additional observations from a re-analysis of the deposited data

How the results depend on the processing

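Of 22 alternatives to the fit without a block, those that kept all libraries and no block left the count of members called at 0, except that 3 members (ATP5MC1, NDUFS1 and UQCRC2) were called lower with a mean of at least 10 TPM (2.92% of all genes) and with protein-coding genes only (2.44%). Leaving out 1 library without a block gave from 0 to 10 members called lower and 0 higher. The 10 came without cDCBLD2 knockdown replicate 1, where 19.8% of all genes were called lower. The replicate block called 23 lower and 2 higher. With the block, the GC trend removed gave 9 lower and 17 higher, the length trend removed 9 and 5, upper-quartile scaling (added after seeing the data) 9 and 6, and voom 5 and 10. The block without both libraries of 1 replicate number (also added) gave from 0 to 25 lower and from 1 to 4 higher, beside 3.19% to 28.0% and 1.32% to 11.3% of all genes. The cause of these differences was not tested. Rescaling without genes of mitochondrial DNA was not run, since these were not analysed here.

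The median log2 fold change of the members, -0.080, with an SD of 0.013 over the 3 pairs, was 0.018 with the GC trend removed, with or without the block. It was -0.0046 with the length trend removed and -0.0095 with upper-quartile scaling, again with or without the block. With voom it was 0.018 without and 0.018 with the block. Leaving out 1 library moved it between -0.10 and -0.059, and leaving out 1 pair between -0.083 and -0.068.

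Of the named members, several turned their direction, among them COX7B (-0.24) and SDHB (-0.21) as well as members near 0. With the GC trend removed, with or without the block, the log2 fold change was 0.34 for NDUFA4, 0.25 for COX7B2, 0.22 for COX7A2, 0.11 for COX7B, 0.097 for UQCRHL, 0.074 for ATP5MC3, 0.028 for NDUFB9, 0.021 for SDHB, -0.0045 for UQCR11 and -0.095 for ATP5F1D. With the length trend removed it was 0.042 for ATP5MC2, 0.0050 for ATP5MF, 0.051 for COX6B1, 0.051 for COX7A2, 0.040 for NDUFA13, 0.050 for NDUFA4, 0.017 for NDUFB9, 0.054 for UQCRC1 and 0.0053 for UQCRHL. With upper-quartile scaling it was 0.048 for ATP5MC2, 0.012 for ATP5MF, 0.064 for COX6B1, 0.063 for COX7A2, 0.046 for NDUFA13, 0.017 for NDUFA4, 0.021 for NDUFB9 and 0.030 for UQCRC1. With voom, without and with the block, it was 0.075 and 0.076 for ATP5MC2, 0.0043 and 0.0033 for ATP5MC3, 0.038 and 0.038 for ATP5MF, 0.020 and 0.020 for COX4I1, 0.092 and 0.091 for COX6B1, 0.096 and 0.097 for COX7A2, 0.073 and 0.072 for NDUFA13, 0.045 and 0.045 for NDUFA4, 0.048 and 0.048 for NDUFB9, and 0.058 and 0.059 for UQCRC1. Leaving out 1 library gave from -0.10 to 0.069 for ATP5MC2, -0.043 to 0.065 for COX6A1, -0.026 to 0.012 for COX6B1, -0.041 to 0.032 for COX7A2, -0.35 to 0.0027 for COX7B2, -0.069 to 0.018 for NDUFA13, -0.089 to 0.0030 for NDUFA4, -0.076 to 0.029 for UQCRC1 and -0.20 to 0.055 for UQCRHL. With the block and without 1 pair, it was 0.035 for COX7A2 and 0.028 for UQCRC1 (without pair 1), 0.0076 for NDUFA13 (without pair 2) and 0.041 for UQCRHL (without pair 3). The cause was not tested. The few reads behind UQCRHL, 24 recovered in the highest library (a lower bound), limit its value.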
